A study of Mus musculus with 8 samples.

Results

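The replication-dependent histone genes, which supply the histone proteins that package newly copied DNA, were examined in c-Kit-enriched cells from B16F10 tumours. Members were the protein-coding rows of the count table whose symbol starts with Hist1h, Hist2h, Hist3h or Hist4h and whose counts, summed over the 8 libraries, reached 10. Of 67 such histone rows, 59 met the count threshold, out of 55450 rows in the whole table. They comprised 6 H1, 16 H2A, 14 H2B, 11 H3 and 12 H4 genes. The rule used only the summed counts: Hist1h2an, with 8 counts in the Scramble and 37 in the PERK KO libraries, lay just inside the threshold, and Hist1h2bl, with 4 and 0, just outside it. Of the 59 members, 54 had enough counts to enter the test, and Hist1h4k, Hist1h4j, Hist1h2bf, Hist1h2an and Hist1h2ap did not.

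The B16F10 line is a mouse melanoma that makes pigment, and 150000 of its cells were placed under the skin of wild-type C57BL6 mice aged 6 weeks, matched for age and sex. The Scramble group received a control line and the PERK KO group a line without PERK (gene Eif2ak3), a stress sensor of the endoplasmic reticulum that reduces translation when proteins fail to fold. The knockout is in the injected tumour cells, not in the mice, and whether the line is a single clone was not stated. Tumours were taken on day 17, digested and depleted of red cells, and cells carrying c-Kit, a receptor found on blood precursors, mast cells and melanocytes, were enriched on magnetic beads without flow sorting. The comparison asked how transcripts of this fraction differ with the tumour line, in 4 Scramble libraries (numbered 2 to 5) and 4 PERK KO libraries (numbered 1 to 4), each from its own tumour. The labels do not say whether each tumour came from its own mouse, so p-values measure the spread between these libraries.

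Library totals were 44950033 to 56697163 counts in Scramble and 29006949 to 47530393 in PERK KO. Levels are given in CPM, the field's usual scale of counts relative to library size (here TMM-corrected), so that 3 counts correspond to 0.0515 to 0.100 CPM depending on the library (counting error only). As a check of the labels, Eif2ak3 fell in PERK KO by 1.97 (log2, SE 0.31, edgeR adjusted p = 0.00371), and Kit, at 196 ± 23.7 and 175 ± 37.8 CPM (SD, n = 4 each), was not called (edgeR adjusted p = 0.559). Of 8 blood progenitor genes, Kit included, 7 were detected and Mpo, a defining gene of myeloid precursors, had no count in any library. Their sum was 220.5 to 288 CPM in the Scramble and 241 to 434 CPM in the PERK KO libraries, and Gata2, Flt3, Runx1 and Lmo2 of this list were called higher in PERK KO. For comparison, 10 melanocyte genes together took 24280 ± 232 CPM in Scramble and 18200 ± 1590 CPM in PERK KO (SD, n = 4 each). Melanocyte transcripts were thus abundant in every library, and fewer cells of a type cannot be told apart from less RNA per cell in these bulk samples.

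Core histones H2A, H2B, H3 and H4 form the spool around which DNA is wound, and linker histone H1 binds where DNA enters and leaves it. The genes that supply them during S phase are short, have no introns, lie in clusters and are present in many near-identical copies. Their mRNAs do not carry a poly(A) tail: they end just after a short stem-loop that is bound by the stem-loop binding protein (Slbp), and they are made when DNA is copied and destroyed when copying stops. Some of them also have longer polyadenylated forms in cells that have left the cycle.

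The 3′ stem-loop is the feature that sets these mRNAs apart, and it was read from the GENCODE M21 transcripts (mm10). The motif searched was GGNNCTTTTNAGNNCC, on the transcript strand after the coding end. It was present in 41 of 59 members (69.5%), or in 41 of the 47 whose model has a 3′ UTR of at least 30 bases (87.2%), against 34 of 21884 other protein-coding genes searched over their whole transcripts (0.155%). It began 22 to 59 bases after the coding end. Its most frequent form, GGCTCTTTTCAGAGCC, was found in 24 members, and the H4 forms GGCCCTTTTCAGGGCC and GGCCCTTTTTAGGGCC in 6 and 2. The following sites show the shared stem and the differences in its letters, with the stem-loop in capitals and 5 flanking bases on each side, for the genes whose levels are described next.
Hist1h1e: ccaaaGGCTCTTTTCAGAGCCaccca
Hist1h1c: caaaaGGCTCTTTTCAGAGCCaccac
Hist1h2ab: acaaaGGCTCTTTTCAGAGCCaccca
Hist2h2ac: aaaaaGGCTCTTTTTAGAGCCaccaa
Hist1h2bg: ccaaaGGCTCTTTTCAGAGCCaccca
Hist1h3c: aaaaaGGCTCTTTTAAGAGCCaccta
Hist1h4b: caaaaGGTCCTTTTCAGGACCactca
Hist1h4d: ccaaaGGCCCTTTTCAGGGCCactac
Hist2h4: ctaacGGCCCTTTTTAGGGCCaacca
Hist4h4: acaaaGGCCCTTTTCAGGGCCcacaa
Of the 18 members without a match, 12 have a model that ends at most 2 bases after the coding end, so that no 3′ UTR could be searched. The other 6 are Hist1h1a, Hist1h2bc, Hist2h2be, Hist1h3g, Hist2h3b and Hist1h4a. The models of Hist2h3b and Hist1h1a end 37 and 48 bases after the coding end. They are too short to hold the motif at many of the positions seen in other members.

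Promoters of 54 members were found in the RefSeq table for GRCm38.p6, each covering 250 bases before to 50 after the start. Searched on both strands, TATAAA was present in 31 of the 54 promoters, CCAAT in 46 and ATTTGCAT, the octamer known from H2B genes, in 11. None of these motifs contains another, and over all 32851 promoters of the table the shares were 13.6%, 37.4% and 1.74%. All 11 octamer matches counted were in H2A (6) or H2B (5) promoters. Windows of H2A and H2B genes that start close together on opposite strands overlap, so the same site can count for both. This held for the octamer of Hist1h2ah and Hist1h2bk and for that of Hist1h2ae and Hist1h2bg. The only TATAAA matches of Hist1h2bn, Hist1h2bp, Hist1h2bk, Hist1h2bf and Hist1h2ae also lie in the window of the partner gene. Hist1h2be was counted by its promoter at chr13:23621045-23621344 alone, which has no octamer. A further promoter of Hist1h2be, at chr13:23585921-23586220, holds the octamer and was not counted. CCAAT was found in every H1, H2A, H2B and H3 promoter searched and in 3 of 11 H4 promoters. The promoters of the 2 members that passed the test, Hist1h2ak (chr13:21753863-21754162, minus strand) and Hist1h2ab (chr13:23750838-23751137, plus strand), are printed with that of Hist1h2bg (chr13:23571150-23571449, plus strand), an abundant member that did not pass it. Capitals mark the 3 motifs in either orientation.
Hist1h2ak: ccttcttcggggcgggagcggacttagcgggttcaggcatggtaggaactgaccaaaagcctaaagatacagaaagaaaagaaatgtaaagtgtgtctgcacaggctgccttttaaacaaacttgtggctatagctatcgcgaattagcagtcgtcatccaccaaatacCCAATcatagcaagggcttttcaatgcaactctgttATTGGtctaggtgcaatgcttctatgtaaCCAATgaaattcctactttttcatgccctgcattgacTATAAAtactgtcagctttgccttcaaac
Hist1h2ab: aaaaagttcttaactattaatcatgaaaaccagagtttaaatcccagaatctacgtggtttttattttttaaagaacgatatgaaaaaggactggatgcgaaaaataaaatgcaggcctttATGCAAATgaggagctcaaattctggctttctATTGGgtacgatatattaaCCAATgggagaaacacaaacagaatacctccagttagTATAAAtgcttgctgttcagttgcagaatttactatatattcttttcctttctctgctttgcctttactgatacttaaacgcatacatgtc
Hist1h2bg: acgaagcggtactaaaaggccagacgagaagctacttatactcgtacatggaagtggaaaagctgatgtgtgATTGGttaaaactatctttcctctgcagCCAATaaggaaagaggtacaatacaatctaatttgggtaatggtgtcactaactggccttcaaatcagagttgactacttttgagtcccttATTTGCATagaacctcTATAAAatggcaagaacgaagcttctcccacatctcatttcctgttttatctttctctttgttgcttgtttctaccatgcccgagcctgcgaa
All 3 windows hold TATAAA and CCAAT. The windows of Hist1h2ab and Hist1h2bg also hold the octamer, and that of Hist1h2ak does not. The Hist1h2ak window begins inside the coding start of Hist1h2bn, which is transcribed the other way.

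Together the 59 members had 2866, 2936, 3378 and 2941 CPM in Scramble libraries 2 to 5 and 3273, 2903, 3131 and 2767 CPM in PERK KO libraries 1 to 4. The groups overlapped throughout, with Scramble library 4 highest and PERK KO library 4 lowest of the 8. The means were 3030 ± 234 CPM in Scramble and 3018 ± 227 CPM in PERK KO (SD, n = 4 each), a ratio of 0.996. The members took 0.250% to 0.347% of a library's counts. The means differed by less than the SD of either group.

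No histone class separated the tumour lines by its summed level. Summed H1 was 700 ± 47.1 CPM in Scramble and 722 ± 74.9 CPM in PERK KO, and summed H4 was 1081 ± 109 and 1087 ± 86.3 CPM (SD, n = 4 each). Summed H3 was 569 ± 39.9 and 583 ± 41.3 CPM. Summed H2A, at 356 ± 39.5 and 336 ± 23.6 CPM, and summed H2B, at 325 ± 12.4 and 291 ± 34.1 CPM, had lower means in PERK KO, by ratios of 0.945 and 0.895. The libraries of the groups overlapped in all 5 classes. For every 100 core histone counts there were 32.3, 30.0, 29.3 and 28.8 H1 counts in Scramble libraries 2 to 5 and 30.2, 28.9, 34.8 and 31.9 in PERK KO libraries 1 to 4. This ratio does not depend on how libraries are scaled, and its groups overlapped too.

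**Figure D1:**
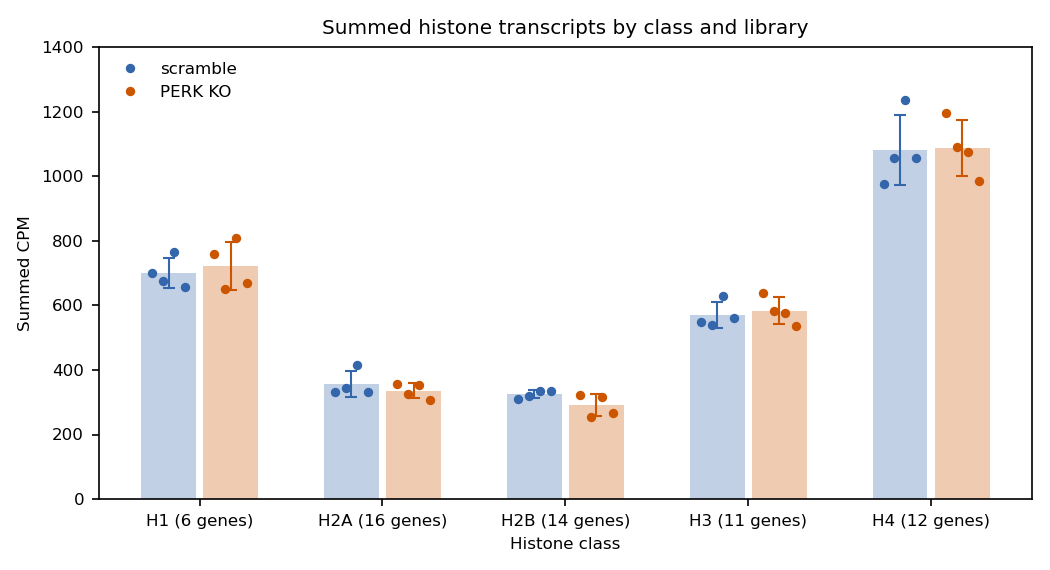
Summed CPM of the 59 histone genes by class: points are single libraries, bars the mean and whiskers the SD over 4 libraries of each group. In all 5 classes the libraries of the groups overlap, and H4 carries the most counts (means of 1081 and 1087 CPM).

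Counts were spread unevenly over the members. The 10 members with the most counts held 66.6% of all members' counts. On average over the 8 libraries, 12 members had at least 100 CPM, 17 had 10 to 100, 17 had 1 to 10 and 13 had under 1 CPM. Genes were compared per kilobase of annotated exon, a length that includes any annotated 3′ UTR beyond the stem-loop and so lowers the value of genes with long models. On this scale Hist2h3b was the highest of all members at 446 CPM per kb, followed by Hist1h4b at 342. Hist2h3b has 23.2% of windows of its own and a coding sequence 99.8% identical to that of Hist2h3c2, a member listed at 0.650 CPM per kb, so how reads were divided between these copies bears on both values. In the other classes the leading genes were Hist1h2af at 255 CPM per kb and Hist2h2ac at 168 for H2A, Hist1h1e at 227 and Hist1h1c at 65.3 for H1 (Hist1h1d, with 160 CPM against 102 CPM for Hist1h1c, came to 21.5 CPM per kb through a model of 7425 bases), and Hist1h2bc at 105 and Hist1h2bg at 90.9 for H2B. The second H3 and H4 genes were Hist1h3c at 162 and Hist1h4d at 231 CPM per kb.

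None of these 10 leading genes passed the test between the tumour lines. Their log2 differences, PERK KO minus Scramble, lay between -0.23 for Hist1h2bg and 0.15 for Hist2h3b. Hist1h1e, the most counted member, had 424, 417, 478 and 395 CPM in Scramble libraries 2 to 5 and 474, 402, 508 and 406 CPM in PERK KO libraries 1 to 4. The groups overlapped, and the log2 difference was 0.06 (SE 0.10, edgeR adjusted p = 0.776). Hist2h3b had 178, 204, 215 and 230 CPM in Scramble and 265, 261, 207 and 183 CPM in PERK KO. Its Scramble libraries lay within the range of the PERK KO ones except for library 2, which was the lowest of all (log2 difference 0.15, SE 0.13, edgeR adjusted p = 0.532).

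Across all members the test called very few. Of the 54 tested, 1 was higher (Hist1h2ak) and 1 was lower (Hist1h2ab) in PERK KO at an edgeR Benjamini-Hochberg adjusted p under 0.05. Over all 16662 genes tested, 7.66% were called higher and 6.13% lower, 13.8% in all. Whether the share among the members differs from that of the table was not tested. At an unadjusted p under 0.05 there were 12 members (7 higher and 5 lower), against 26.7% of all genes. Scramble and PERK KO libraries were fully separate for 7 members, 4 higher and 3 lower in PERK KO, against 21.3% of all genes (10.2% higher and 11.1% lower). The median log2 difference was -0.03 over the tested members and -0.02 over all genes tested.

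Abundant members differed little between the groups. All 29 members with a mean of at least 10 CPM had a log2 difference within 0.5 of zero, from -0.43 (Hist1h2bh) to 0.31 (Hist2h4). All 12 members with a difference above 1 in size had means under 10 CPM, and each of them was higher in PERK KO. Members near 0 in Scramble can show such a rise but no such fall, so this shared direction was partly fixed in advance. For example, Hist3h2ba had 0.326, 0, 0 and 0.019 CPM in Scramble libraries 2 to 5, and Hist1h2bp 0, 0, 0 and 0.155. With DESeq2 in place of edgeR, 5 members were called higher: Hist1h2ak, Hist1h1a, Hist1h2ao, Hist1h3h and Hist2h4. With voom there were 4, Hist1h2ak, Hist1h1a, Hist1h2bp and Hist3h2ba.

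**Figure D2:**
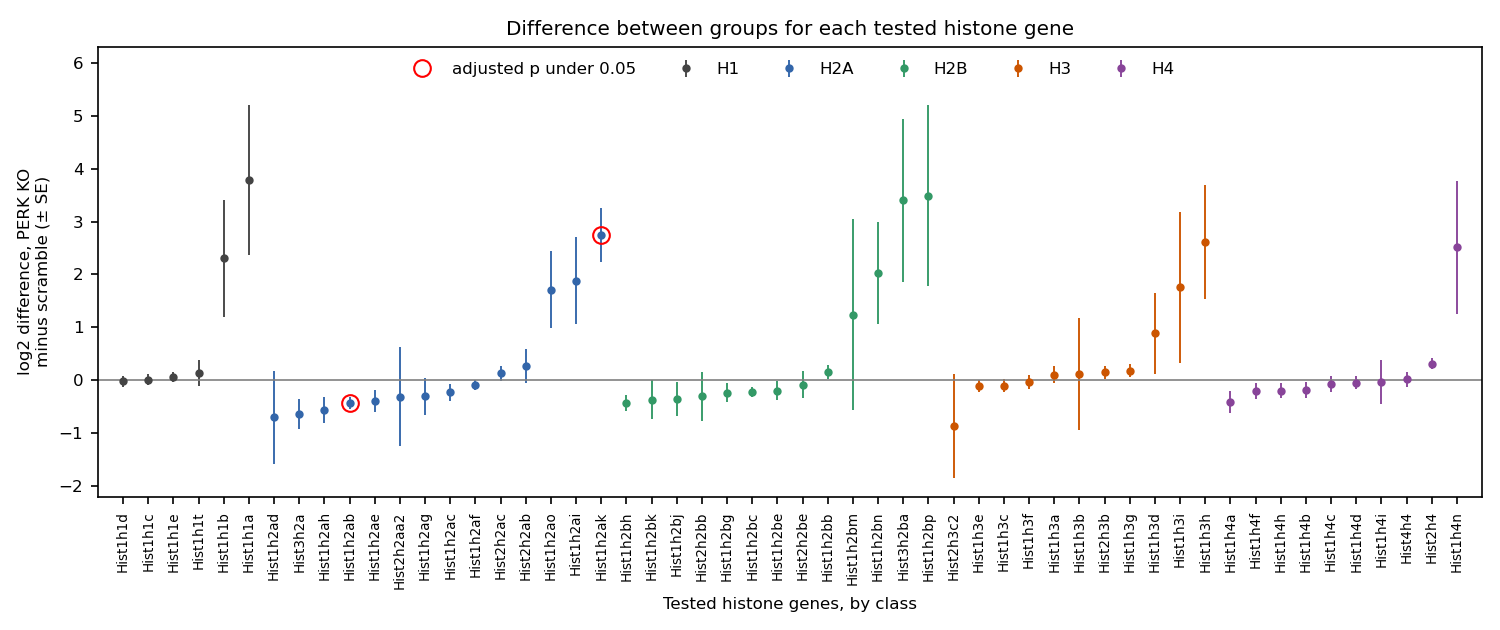
Log2 difference (PERK KO minus Scramble) of the 54 tested histone genes, by class and in order of size, with whiskers for the SE of the edgeR fit and rings for adjusted p under 0.05. Most points lie close to 0, and those above 1 have wide SEs.

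Hist1h2ak, an H2A gene on chromosome 13 (21753435 to 21753827, minus strand), was the member that rose. It had 1.96, 2.75, 0.585 and 2.57 CPM in Scramble libraries 2 to 5 and 6.63, 11.0, 9.92 and 25.2 CPM in PERK KO libraries 1 to 4. Every PERK KO library lay above every Scramble library, with PERK KO library 4 highest and Scramble library 4 lowest. The log2 difference was 2.74 (SE 0.51, edgeR adjusted p = 0.00612), and 2.22 without PERK KO library 4. Of its 105-base windows, the length of a read, 91.0% occur in no other annotated gene, so most of its reads can be told from those of other copies. An overlapping miRNA gene on the opposite strand was left out of this count.

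Hist1h2ab, another H2A gene of chromosome 13 (23751126 to 23751598, plus strand), was the member that fell. Its levels were 54.7, 60.2, 66.4 and 56.9 CPM in Scramble libraries 2 to 5 and 49.8, 39.1, 47.6 and 40.8 CPM in PERK KO libraries 1 to 4. The groups did not overlap, and it fell by 0.43 (log2, SE 0.11, edgeR adjusted p = 0.0248). The call rests on each of several libraries: the edgeR adjusted p was 0.0518 without PERK KO library 2, 0.0519 without PERK KO library 4, 0.0771, 0.0871 and 0.0521 without Scramble libraries 3, 4 and 5, and 0.0586 with upper-quartile scaling. Only 48.2% of its 105-base windows are its own, so its reads cannot be fully told apart from those of other H2A copies.

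Neighbours of Hist1h2ak also had higher means in PERK KO. On chromosome 13 the members fall into 3 blocks in the order of their coordinates: 14 genes between 21716422 and 21833507, 5 between 22035164 and 22043676, and 29 between 23531050 and 23764406. The first block holds Hist1h2ak and was singled out after its values were seen, so its sums are given without a test. Together its 14 members had 6.01, 6.08, 1.34 and 6.48 CPM in Scramble libraries 2 to 5 and 15.1, 20.9, 23.4 and 49.2 CPM in PERK KO libraries 1 to 4. The groups did not overlap, and the means were 4.98 ± 2.43 and 27.1 ± 15.1 CPM (SD, n = 4 each), a ratio of 5.45, or 3.97 without PERK KO library 4 and 4.38 without Scramble library 4. All 14 had a higher mean in PERK KO, against 16 of the 45 members elsewhere. The sides are unlike: all 14 had means under 10 CPM, and the 29 members at or above 10 CPM lie elsewhere. Hist1h4k, Hist1h2an, Hist1h2ap and Hist1h2bp had fewer than 10 Scramble counts in all and met the count threshold only through PERK KO. Their direction was thus largely set by that threshold. The block gave 0.531% of the members' summed CPM, so that its difference does not show in the total.

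All 14 genes of the first block had low counts, with means under 10 CPM. PERK KO library 4 was the highest of the 8 libraries for 10 of them. Scramble library 4 had 62 counts over the whole block and none for 7 of its genes. Hist1h2ai, an H2A gene, had 1.05, 0.515, 0.0650 and 0.329 CPM in Scramble and 2.08, 1.39, 1.49 and 2.31 CPM in PERK KO, with no overlap (log2 difference 1.88, SE 0.82, edgeR adjusted p = 0.168). Hist1h3h, an H3 gene, had 0.217, 0.309, 0 and 0.871 CPM in Scramble and 0.770, 2.20, 1.44 and 4.16 CPM in PERK KO, where only PERK KO library 1 fell below a Scramble library (log2 difference 2.61, SE 1.08, edgeR adjusted p = 0.143). Hist1h2ao differed by 1.71 on the log2 scale without overlap (SE 0.72, edgeR adjusted p = 0.151). Hist1h2ai, Hist1h3h and Hist1h2ao have few windows of their own (11.8%, 8.14% and 7.45%), so their reads cannot be told apart from those of other copies.

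Hist1h1b, the H1.5 linker histone gene, lies in the same block and has no sequence in common with another gene at this window length. It had 0.869, 0.326, 0 and 0.174 CPM in Scramble libraries 2 to 5 and 2.08, 0.805, 1.37 and 2.60 CPM in PERK KO libraries 1 to 4. Only PERK KO library 2 overlapped the Scramble range (log2 difference 2.31, SE 1.11, edgeR adjusted p = 0.209). Hist1h4k had no count in the Scramble libraries, which allows up to 0.0650 CPM in the shallowest of them, and 0, 0, 0.116 and 2.05 CPM in PERK KO libraries 1 to 4. Most of its signal thus came from PERK KO library 4. Over the block, 6 of 14 genes have at least 50% of their windows unique.

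**Figure D3:**
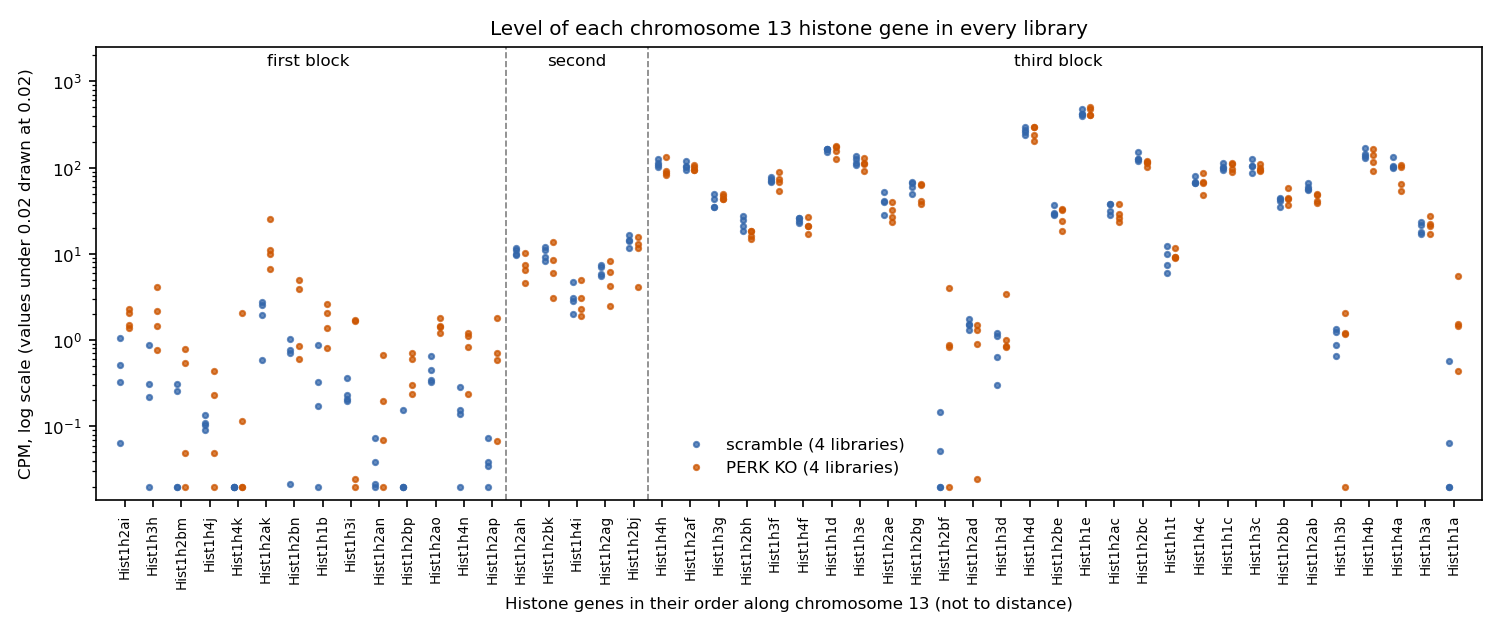
CPM of each of the 48 chromosome 13 members in every library, on a log scale, in their order along the chromosome, with values under 0.02 drawn at 0.02. The PERK KO points lie mostly above the Scramble points in the first block, while in the second block and the third block they mix.

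The sums of the other chromosome 13 blocks did not share this pattern. The third block, with 29 members and 74.4% of the members' CPM, summed to 2239, 2213, 2580 and 2221 CPM in Scramble and 2436, 2012, 2324 and 1964 CPM in PERK KO. The groups overlapped, with means of 2313 ± 178 and 2184 ± 232 CPM (SD, n = 4 each). This sum says little of the block's 6 members under 10 CPM. Of those, Hist1h1a, Hist1h2bf, Hist1h3d, Hist1h1t and Hist1h3b had higher means in PERK KO. Hist1h2ad had a lower mean. Hist1h2bf, which did not enter the test, had means of 0.0491 CPM in Scramble and 1.42 CPM in PERK KO. The second block summed to 44.7 ± 4.66 CPM in Scramble and 34.6 ± 9.12 CPM in PERK KO, again with overlap. The 5 genes of the second block all had negative log2 differences, of which Hist1h2ah, at -0.57, was the largest (SE 0.25, edgeR adjusted p = 0.166).

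Among cell type marker sums that rose with the first block was that of 6 mast cell genes (Cpa3, Mcpt4, Tpsb2, Cma1, Fcer1a and Ms4a2). All 6 were called higher in PERK KO. Their sum was 119, 138, 17.7 and 152 CPM in Scramble libraries 2 to 5 and 662, 971, 1464 and 2928 CPM in PERK KO libraries 1 to 4. All 8 libraries were in the same order for the mast cell sum and for the sum of the first block, which describes 8 libraries and carries no test. The order was not the same for 10 pan-leukocyte genes, with 341, 332, 304 and 384 CPM in Scramble and 547, 797, 532 and 1301 CPM in PERK KO. It was not the same either for the lists of melanocyte, blood progenitor and epithelial genes, although the epithelial sum was also higher in PERK KO (3.90 ± 0.848 against 89.8 ± 37.2 CPM, SD, n = 4 each). The pan-leukocyte and epithelial sums, like the first block, had Scramble library 4 lowest, PERK KO library 4 highest and no overlap between groups. The first block itself hardly separated Scramble libraries 2 and 3, at 6.01 and 6.08 CPM. The rise was thus not particular to mast cell genes. The part of these cell types in the histone values was not tested.

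**Figure D4:**
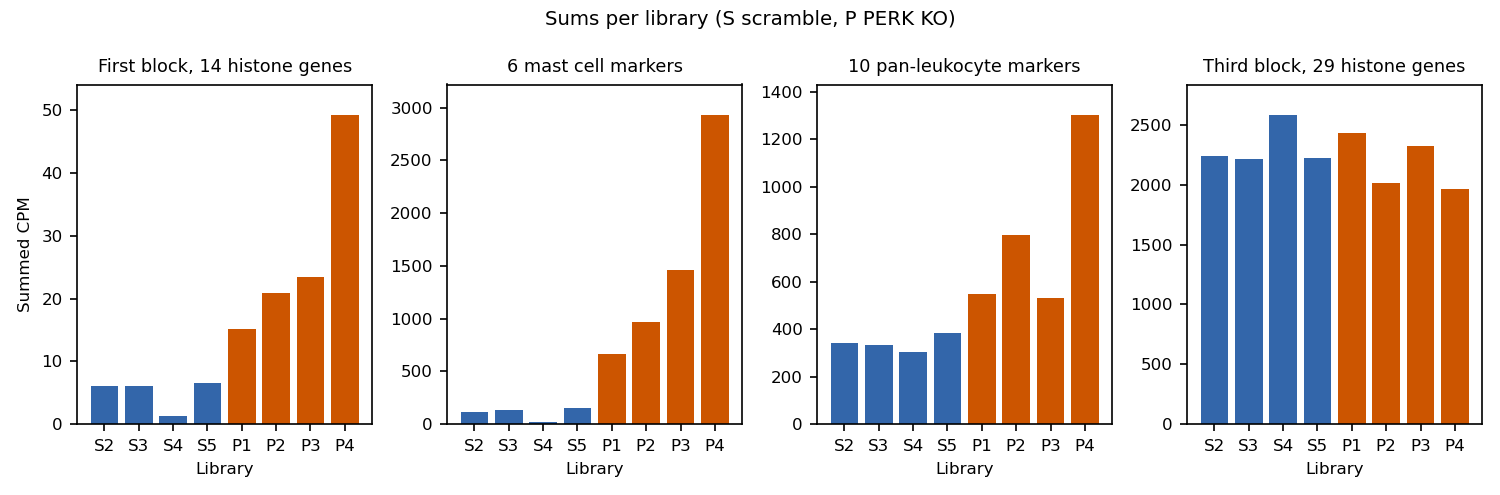
Summed CPM per library (S2 to S5 Scramble, P1 to P4 PERK KO) of the first chromosome 13 block, 6 mast cell markers, 10 pan-leukocyte markers and the third chromosome 13 block, each on its own axis from 0. The first block and the mast cell markers put all 8 libraries in the same order, and the third block does not. The pan-leukocyte markers share the lowest (S4) and the highest (P4) library with the first block.

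No linker histone gene passed the edgeR test, while 1 of 6 had an unadjusted p under 0.05 and 1 was called higher by DESeq2 and by voom. Hist1h1c, Hist1h1d and Hist1h1e, the common somatic forms, had 102 ± 7.98, 161 ± 7.03 and 428 ± 35.1 CPM in Scramble and 102 ± 11.3, 158 ± 23.7 and 448 ± 52.2 CPM in PERK KO (SD, n = 4 each). All 3 log2 differences were within 0.07 of zero. Hist1h1a, the H1.1 gene at the end of the third block, had 0, 0.567, 0.0650 and 0 CPM in Scramble libraries 2 to 5 and 0.436, 1.54, 1.46 and 5.51 CPM in PERK KO libraries 1 to 4. Only Scramble library 3 and PERK KO library 1 overlapped (log2 difference 3.79, SE 1.42, edgeR adjusted p = 0.104, or 0.0348 without Scramble library 3). Its whole sequence is unique among annotated genes.

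**Figure D5:**
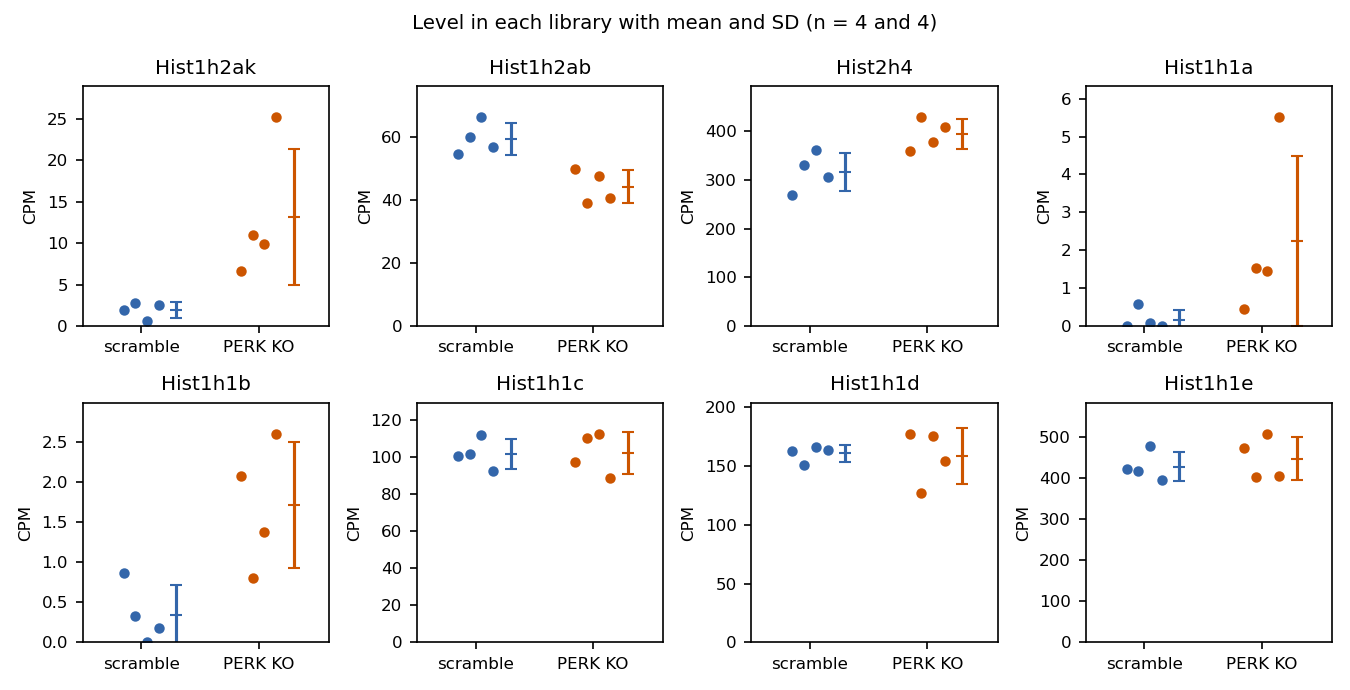
CPM of 8 named histone genes in each library, with the mean and SD of each group (n = 4 and 4) beside the points and lower whiskers clipped at 0. Hist1h2ak, Hist1h1a and Hist1h1b are low genes with high PERK KO points, Hist1h2ab lies lower in PERK KO, and Hist1h1c, Hist1h1d and Hist1h1e overlap.

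The chromosome 3 cluster, which holds abundant H3 and H4 genes, had a higher mean in PERK KO. Its 8 members summed to 541, 634, 700 and 636 CPM in Scramble libraries 2 to 5 and 744, 810, 704 and 678 CPM in PERK KO libraries 1 to 4. The groups overlapped through Scramble library 4 and PERK KO library 4, and the means were 628 ± 65.5 and 734 ± 57.6 CPM (SD, n = 4 each), a ratio of 1.17. Hist2h4, an H4 gene with wholly unique windows, had 270, 330, 362 and 306 CPM in Scramble and 360, 429, 378 and 409 CPM in PERK KO. Only Scramble library 4 reached the PERK KO range, and the log2 difference was 0.31 (SE 0.10, edgeR adjusted p = 0.0632). With DESeq2 size factors in the edgeR fit its adjusted p was 0.0381, so this gene lies at the threshold.

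Several members are also known as polyadenylated mRNAs in resting or differentiated cells. Among these, Hist1h2bc had 126, 127, 119 and 150 CPM in Scramble and 115, 114, 118 and 103 CPM in PERK KO, with no overlap (log2 difference -0.22, SE 0.09, edgeR adjusted p = 0.160). Hist2h2be had 10.9 ± 0.954 and 10.3 ± 3.60 CPM, and Hist4h4 had 33.3 ± 4.33 and 33.6 ± 6.37 CPM (SD, n = 4 each). Neither of these differed beyond the spread between libraries. The GENCODE models of Hist1h2bc and Hist2h2be hold no stem-loop match, while those of Hist1h1c and Hist4h4 do.

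Genes known from testis were low or not detected. Hist1h1t, the testis H1, had 12.3, 7.47, 9.90 and 5.92 CPM in Scramble and 8.94, 9.15, 9.29 and 11.8 CPM in PERK KO, with the groups overlapping (log2 difference 0.14, SE 0.24, edgeR adjusted p = 0.803). Hist1h2aa and Hist1h2ba, which are no members because they missed the count threshold, had no count in any library, which allows up to 0.0515 to 0.100 CPM. On chromosome 11, Hist3h2a had 5.90, 5.44, 7.19 and 6.08 CPM in Scramble and 5.06, 4.66, 3.32 and 2.81 CPM in PERK KO. Its groups did not overlap, but the difference did not pass the test (log2 difference -0.64, SE 0.29, edgeR adjusted p = 0.180).

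Many H2A and H2B genes lie head to head and share the space between their starts. Of 12 such pairs, 8 had both genes among the members. Their levels per kilobase could differ widely within a pair: Hist2h2ac had 168 CPM per kb and Hist2h2be 4.04, and Hist1h2bc had 105 and Hist1h2ac 12.7. Part of these gaps comes from annotated length, since the models of Hist2h2be and Hist1h2ac span 2620 and 2482 bases against 520 and 1156 for their partners. Not divided by length, the levels were 87.5 and 10.6 CPM in the first of these pairs and 121.5 and 31.5 CPM in the other. In the pair of the Hist1h2ak promoter printed above, Hist1h2ak had 19.3 CPM per kb and Hist1h2bn 4.21. Hist1h2bn had 0.706, 0.773, 0.0217 and 1.03 CPM in Scramble and 0.603, 0.854, 3.92 and 4.94 CPM in PERK KO, so that PERK KO libraries 3 and 4 were high and the other 2 lay within the Scramble range. Its log2 difference was 2.03 (SE 0.96, edgeR adjusted p = 0.206). In the pair of the Hist1h2bg promoter, Hist1h2bg and Hist1h2ae had log2 differences of -0.23 and -0.39, neither past the test.

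Near-identical copies limit how far single members can be read. Of the 59, 41 had at least 50% of their 105-base windows in no other annotated gene, and 9 had all of them. Genes that overlap a member's own position were left out of this count, so sharing with them does not show. Such an overlap exists on the same strand for 5 members and on the opposite strand for 19. Hist1h1e and Hist1h2be overlap each other on the same strand. The median share of unique windows was 99.7% for H1, 82.5% for H4, 72.6% for H2B, 60.2% for H3 and 36.0% for H2A. For the 51 core members with a value, the closest other histone coding sequence was identical at a median of 98.4% of positions. Restricted to the 41 more unique members, the summed levels were 2626 ± 211 CPM in Scramble and 2615 ± 195 CPM in PERK KO (SD, n = 4 each), a ratio of 0.996.

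The spread between libraries was described over the abundant members, without a test. Over the 29 members with at least 10 CPM, the median coefficient of variation was 11.1% in Scramble and 18.6% in PERK KO. Scramble library 4 was the highest Scramble library for 23 of the 29. PERK KO library 2 was the lowest PERK KO library for 12 and PERK KO library 4 for 11. PERK KO library 2 also had the lowest TMM factor (0.863) and 5.49% of its counts on mt-Cytb, and the part of this in its histone levels was not tested. The gene with the most counts was mt-Cytb in every PERK KO library (1.34% to 5.49%). In the Scramble libraries it was Gm42418 or Gm26917 (1.20% to 2.22%). The part of this group difference in the histone levels was not tested either.

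Genes that make and process histone mRNA were lower in PERK KO where they passed the test, and whether the list differs from other genes was not tested. All 19 of the list had negative log2 differences, as had 8648 of all 16662 genes tested. The list summed to 1646 to 1734 CPM in the Scramble and 1317 to 1483 CPM in the PERK KO libraries, without overlap. Of the mean sums of 1698 CPM in Scramble and 1377 CPM in PERK KO, Cdk2 alone held 440 and 319 CPM. Of 19 such genes, 4 were called lower and 0 higher (0 higher also at an unadjusted p under 0.05, and with DESeq2 and voom), against 6.13% lower and 7.66% higher among all genes tested, and the median log2 difference was -0.23, against -0.02 over all genes. Sympk, the scaffold of the 3′ cleavage complex, had 195, 188, 184 and 146 CPM in Scramble and 105, 129, 127 and 126 CPM in PERK KO, and fell by 0.55 (log2, SE 0.11, edgeR adjusted p = 0.00761). Cdk2, the kinase that activates the histone gene activator Npat, fell by 0.46 (SE 0.12, edgeR adjusted p = 0.0241) and Cpsf2, a partner of the cleavage nuclease, by 0.42 (SE 0.12, edgeR adjusted p = 0.0380). The count of this list was 1 or 2 instead of 4 without PERK KO library 3 or any single Scramble library, and it was 2 with DESeq2 size factors and 1 with upper-quartile scaling. The melanocyte sum was also lower in the PERK KO libraries, and its part in this list was not tested.

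S phase genes were lower in PERK KO where they passed the test. Of 27, 3 were called lower and 0 higher by edgeR, DESeq2 and voom alike (10 lower and 0 higher at an unadjusted edgeR p under 0.05), with a median log2 difference of -0.16. Of the 27 differences, 23 were negative and 4 positive, against 8648 and 8014 among all genes tested. Among all 16662 genes tested, 6.13% were called lower, and 2224 were lower at an unadjusted edgeR p under 0.05. Whether the list differs from this was not tested. Rrm1, the large subunit of ribonucleotide reductase, had 263, 275, 277 and 271 CPM in Scramble and 166, 166, 145 and 160 CPM in PERK KO. The groups were far apart, and Rrm1 fell by 0.77 (log2, SE 0.08, edgeR adjusted p = 0.000228). Tk1, thymidine kinase, fell by 0.44 (SE 0.11, edgeR adjusted p = 0.0249) and Lig1, the ligase that joins newly made DNA fragments, by 0.35 (SE 0.09, edgeR adjusted p = 0.0261). The count was 1 without PERK KO library 4 or Scramble library 3, 4 or 5, 7 without PERK KO library 1 and 1 with upper-quartile scaling. The lower melanocyte sum of the PERK KO libraries moved in the same direction as these genes, and its part in them was not tested.

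Of 17 histone chaperones, 2 were called lower and 0 higher (1 higher at an unadjusted p under 0.05, 1 higher with DESeq2 and 0 with voom), with a median of -0.15, against 6.13% lower and 7.66% higher among all genes tested. Whether the chaperones or the replication-independent genes differ from that share was not tested. Supt16, a subunit of the FACT complex that moves histones aside for polymerases, fell by 0.45 (log2, SE 0.11, edgeR adjusted p = 0.0211), and Ipo4, which carries new H3 and H4 into the nucleus, by 0.41 (SE 0.13, edgeR adjusted p = 0.0493). Without any single Scramble library the count of this list was 0. Of 11 replication-independent histone genes 10 were tested, and 1, the centromeric H3 gene Cenpa, fell, by 0.51 (SE 0.15, edgeR adjusted p = 0.0401), while 0 were called higher (1 at an unadjusted p under 0.05, 0 with DESeq2 and voom). That call was lost without PERK KO library 4 or any single Scramble library. Its levels were 65.9, 62.0, 66.2 and 65.5 CPM in Scramble and 50.6, 32.0, 56.1 and 43.7 CPM in PERK KO, without overlap.

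Among genes that are no members, the 3 whose log2 CPM followed the log2 summed CPM of the members most closely over the 8 libraries were Ddx55 (Pearson r = 0.94), Ccdc57 (r = 0.93) and Pycrl (r = 0.92). These were chosen from all tested genes with at least 10 CPM on average and describe 8 libraries that share their scaling.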

How the data were processed

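RNA sequencing of 8 libraries was used as deposited. Per the labels' protocols, strand-specific libraries were made from 100 ng of total RNA and sequenced as paired reads of 105 bases. How RNA was selected for the libraries is not described here, and it bears on how far mRNAs without a poly(A) tail were captured. Per the submitters' processing notes, the tools were STAR 2.5.3a, HTSeq 0.6.1, DESeq2 1.30.1 and bcl2fastq, with mm10; settings, including strand and the treatment of reads that match several copies, were not given in the sources used here. The deposited raw table holds counts per gene. The deposited normalized table holds a signal, counts divided by 1 factor per library, and served only to check the raw one.

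All 55450 identifiers matched GENCODE M21. Genes were filtered with filterByExpr by group (16662 left), scaled with TMM (factors 0.863 to 1.03) and tested with edgeR 4.0.16 (robust quasi-likelihood fit, group only, Benjamini-Hochberg over all genes, 0.05) under R 4.3.3. The script was tested on simulated data. CPM are TMM-scaled, and ± is the SD over 4 libraries. Same-numbered libraries did not vary together (correlations -0.01, 0.10 and -0.20).

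Members and gene lists were chosen with earlier results of these data known. Named genes followed a rule: called members; the 2 most abundant per kilobase in each class; members known as polyadenylated or from testis; up to 3 called genes per list; Eif2ak3 and Kit; the threshold neighbours; and the 3 genes most like the members' sum. Hist2h4, Hist1h1a, Hist1h1b, Hist1h1d, Hist1h2bh, Hist3h2a and the genes of the first chromosome 13 block, with the others named beside them, were chosen after their values were seen. Alternatives were other scalings, DESeq2 1.42.0, limma 3.58.1 voom with quality weights, a fit that is not robust, other filters, each library left out in turn and a replicate block. Restriction to members with at least 50% unique windows, and scalings and left-out libraries for the first block, were added after seeing the data. Tables and plots used Python 3.11.15, numpy 2.4.6, pandas 2.3.3 and matplotlib 3.10.9.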

Additional observations from a re-analysis of the deposited data

Results flagged for a closer look

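In 11 of 132 groups of 4 libraries examined (59 genes and 7 sums in both tumour lines), 1 library lay far from the other 3 by Dixon's criterion for the gap to the nearest library, which chance gives in about 1 of 20 groups. The groups share libraries and genes.

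Scramble library 4 stood apart in 5 of them. It was high for the sum of all members (3380 CPM, others 2870 to 2940), the H2A sum (414 CPM, others 331 to 345), Hist1h4a (131 CPM, others 99.0 to 103) and Hist1h2be (36.7 CPM, others 28.4 to 29.7). It was low for the sum of the first chromosome 13 block (1.34 CPM, others 6.01 to 6.48).

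PERK KO library 4 was high for Hist1h1t (11.8 CPM, others 8.94 to 9.29) and Hist1h4k (2.05 CPM, others 0 to 0.116), and PERK KO library 1 for Hist1h3d (3.38 CPM, others at most 1.01). Among genes near the detection floor, Hist1h1a was high in Scramble library 3 (0.567 CPM, others 0 to 0.0650), Hist3h2ba in Scramble library 2 (0.326 CPM, others 0 to 0.0193) and Hist1h2bp in Scramble library 5 (0.155 CPM, others 0).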

How the results depend on the processing

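The sums of all members and of each class, the median difference and the ratio of the first chromosome 13 block moved by less than the spread between replicates under every scaling tried. Counts of calls moved more. Members called higher numbered 2 with RLE and upper-quartile factors and the stricter filter, 5 with DESeq2 and 4 with voom (1 with TMM and edgeR), and 1 to 2 with a library left out. Members called lower numbered 0 with upper-quartile factors and among the more unique members, and 0 to 2 with a library left out. All genes called ranged from 1078 to 2616 with a library left out, higher from 639 to 1372 and lower from 439 to 1244. Upper-quartile factors gave 1430 higher and 653 lower genes and library totals 1065 and 1169, against 1277 and 1022. The processing list had 2 calls with RLE and 1 with upper-quartile factors (1 to 6 with a library left out), the chaperones 1 with voom, a fit that is not robust or no filter (0 to 3), the replication-independent genes 0 with RLE, upper-quartile factors or totals (0 to 1), and the S phase genes 1 with upper-quartile factors (1 to 7). With a replicate block (libraries 2, 3 and 4 of both groups, which share only a number) 199 genes were called, 139 higher and 60 lower, with 0 members in either direction, 0 processing, 0 chaperone, 0 replication-independent and 1 S phase gene, against 1334 genes in the same 6 libraries without it. Of the comparisons of single named genes with an alternative, 600 kept their side of the threshold, 14 passed it and 67 lost it, and none reversed. The causes were not tested. Depth limits the members under 1 CPM, where 3 counts are up to 0.100 CPM.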
